A study of Mus musculus with 4 samples.

Results

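The genes described here encode the interleukin-7 (IL-7) receptor and the kinases and transcription factors directly behind it: 3 receptor chain genes (Il7r, Il2rg, Crlf2), 2 Janus kinase genes (Jak1, Jak3) and the 2 STAT5 genes (Stat5a, Stat5b). The members were taken by symbol, and all 7 were found among the 23284 gene symbols of the study. They were measured by RNA-seq of pre-B cells, marrow precursors of B cells with a rearranged heavy chain gene, in mice of strain C57BL/6J. Each of 4 groups gave 1 library. At steady state these were wild type (below, steady wild type) and mice transgenic for the adaptor STAP-2 (Tg), and 1 month after marrow transplantation they were wild type (transplant wild type) and STAP-2 knockout (the KO-labelled library). What drives the transgene, which part of Stap2 the knockout lacks, the hosts, the number of animals and the gate for pre-B cells are not stated in the labels used here.

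IL-7 is a cytokine of marrow stroma on which mouse B cell precursors depend for survival and division. It binds the IL-7 receptor alpha chain, encoded by Il7r, together with the common gamma chain, encoded by Il2rg, and the kinases JAK1 and JAK3 that these chains carry phosphorylate STAT5A and STAT5B, which then enter the nucleus and act on transcription. The receptor for thymic stromal lymphopoietin (TSLP) pairs the same alpha chain with the product of Crlf2. STAP-2 is an adaptor that is known to bind STAT5.

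Each value is an FPKM, a level per transcript length and per reads mapped, so that levels can be compared between genes. The estimated depth lay between 7260000 and 8670000 reads per library, and a transcript of 1500 nt at 1 FPKM rested on 9.40 to 11.2 reads. With 1 library per group there is no replicate and no test, and the 95% intervals below cover counting error only. Stap2, the manipulated gene, was nearly silent everywhere: 0.212 FPKM in steady wild type, 0.536 in Tg, listed at 0 in transplant wild type and 0.179 in the KO-labelled library. Its level therefore checks neither genotype label. The pre-B markers Cd79a (1624 to 1952 FPKM), Vpreb3 (1291 to 1492) and Pax5 (287 to 334) were high in all 4 libraries. The surrogate light chain genes on the same list of 13 were not level: Vpreb1 was at 7.31 FPKM in steady wild type and 30.2 to 38.6 elsewhere, Igll1 at 14.6 and 36.4 to 49.7, and Vpreb2 was listed at 0 there and at 3.74 to 8.86 elsewhere.

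The 7 genes differed between libraries by unlike amounts. Jak3, Il7r and Il2rg differed by 1.84-fold, 1.57-fold and 1.49-fold between their highest and lowest library. Crlf2 and Jak1 differed by 1.20-fold and 1.16-fold, and Stat5b and Stat5a by 1.10-fold and 1.04-fold. Among 8860 genes at 5 FPKM or more in any library, 93.1% had a smaller range than Jak3, 88.6% a smaller one than Il7r and 85.6% a smaller one than Il2rg. Crlf2 and Jak1 lay between, with a smaller range in 43.9% and 33.3% of genes. Only 1.32% had a smaller range than Stat5a and 11.6% a smaller one than Stat5b. Stat5a rested on 301 to 345 estimated reads per library, and its levels differed by less than their counting error. Its rank is therefore imprecise.

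**Figure D1:**
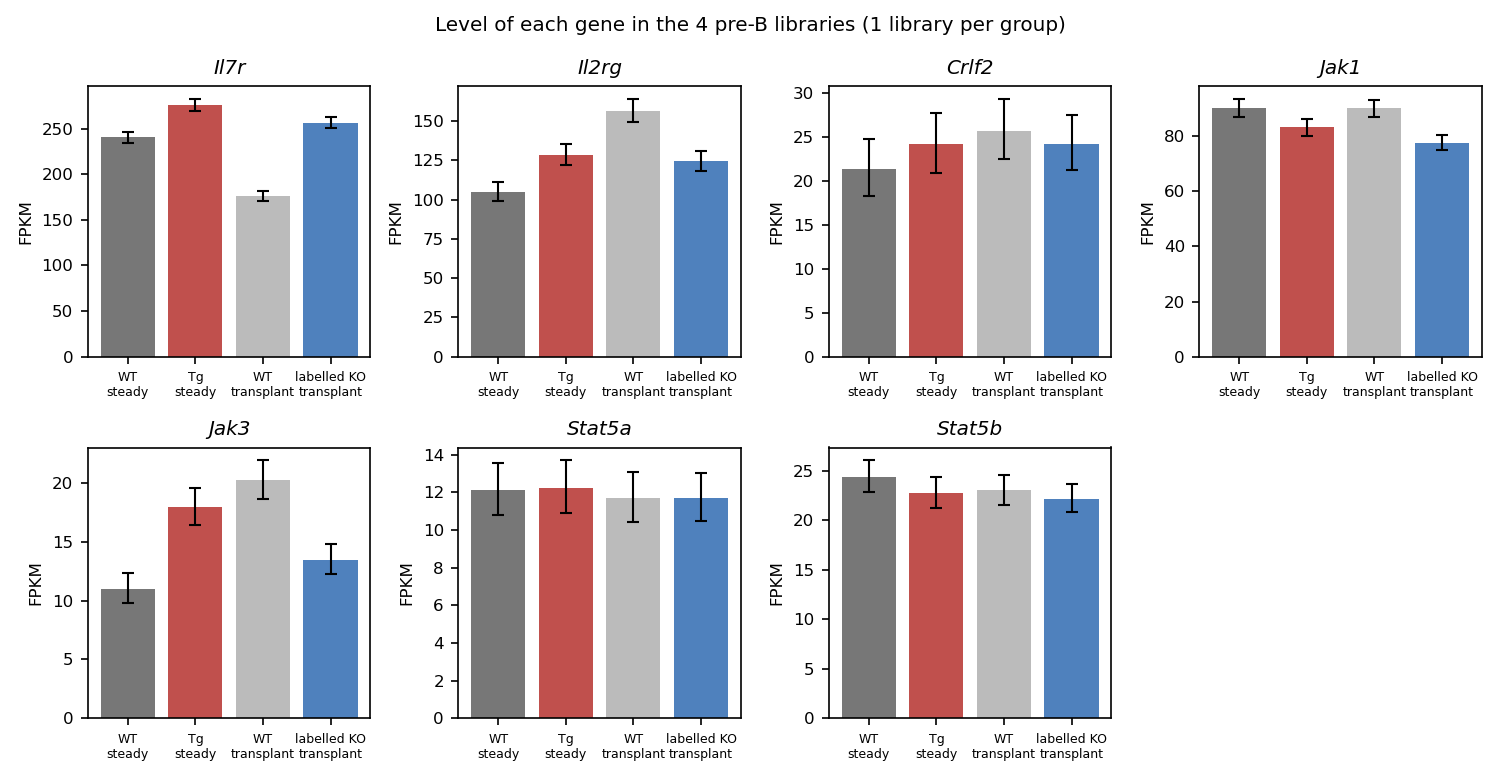
FPKM of each of the 7 genes in the 4 libraries, 1 bar per library, with the 95% counting interval of the level. Il7r was lowest, and Il2rg and Jak3 highest, in transplant wild type, whereas the bars of Stat5a and Stat5b are nearly level.

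**Figure D2:**
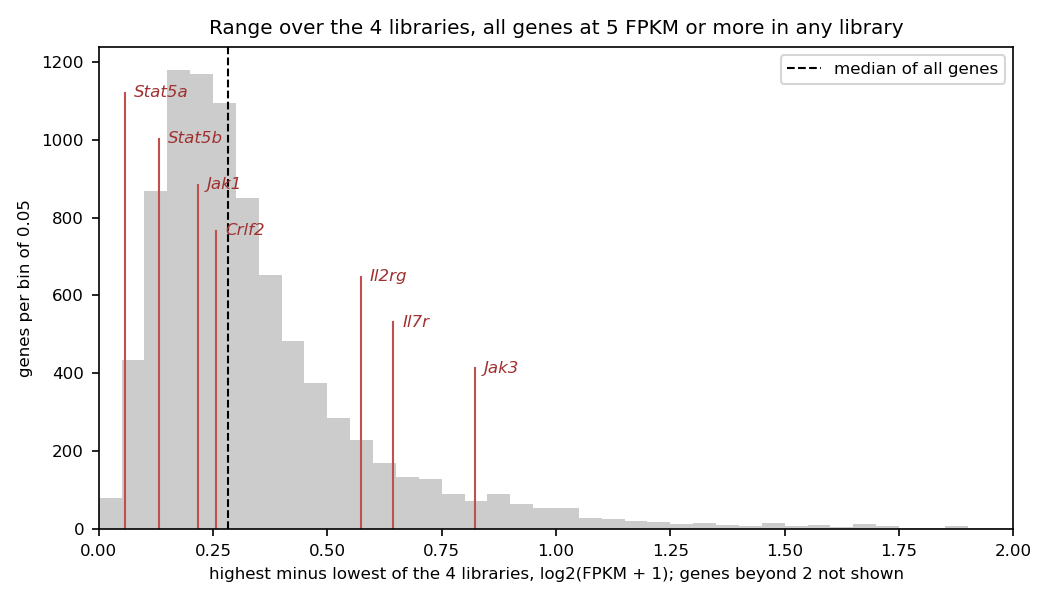
Distribution of the range over the 4 libraries, highest minus lowest log2(FPKM + 1), for 8860 genes at 5 FPKM or more in any library, with the 7 genes marked by red lines whose height has no meaning. Stat5a and Stat5b lie at the low end (0.06 and 0.13), below the median of 0.28, and Il2rg, Il7r and Jak3 in the upper tail (0.57, 0.64 and 0.82).

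Il7r (ENSMUSG00000003882.5; GRCm38 chromosome 15, 9505788 to 9530176, minus strand; 8 exons) encodes the alpha chain that makes a cell responsive to IL-7 and TSLP. It was at 240.3 FPKM in steady wild type, 276 in Tg, 176 in transplant wild type and 256 in the KO-labelled library, resting on 5859, 6676, 4547 and 7409 estimated reads. The transplant wild type was thus the low library, and the other 3 lay between 240.3 and 276. Tg was above its wild type by a ratio of 1.15 (1.11 to 1.19), and the KO-labelled library was above its own by 1.45 (1.40 to 1.51). Transplant wild type stood at 0.733 (0.705 to 0.762) of steady wild type. Rescaling the libraries to the same sum moved the log2 difference of Tg from 0.20 to 0.08, beyond its counting error, that of the KO-labelled library from 0.54 to 0.64 and that of transplant wild type from -0.45 to -0.55. These 2 wild-type libraries carry different codes in their titles, 0826 and 0901, so code and transplantation cannot be told apart, whereas each genotype comparison was made within 1 code. The KO-labelled and transplant ratios share the transplant wild type, and one low library enters both.

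The 160 bases before the RefSeq start of Il7r (chr15:9529877-9530036, minus strand, GRCm38.p6), outside its annotated exons, are shown because they hold the letters TTCNNNGAA, the GAS element that STAT proteins recognise, here in capitals. The element reads the same on both strands.
Il7r: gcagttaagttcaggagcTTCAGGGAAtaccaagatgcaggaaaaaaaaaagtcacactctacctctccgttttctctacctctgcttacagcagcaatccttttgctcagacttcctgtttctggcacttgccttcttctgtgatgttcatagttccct
The match starts at -142 from the RefSeq start and lies inside the GENCODE span of Il7r, which reaches 9530176. Promoters were searched from 250 bases before to 50 after each RefSeq start. Of 9 listed for the 7 genes, this was the only one with a match, and of all 32851 listed 8.30% have one, and a match is a stretch of letters, not a measured binding site.

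Il2rg (ENSMUSG00000031304.18; chromosome X, 101264378 to 101268255, minus strand; 8 exons) encodes the gamma chain shared by the receptors for IL-2, IL-4, IL-7, IL-9, IL-15 and IL-21. Its level was 105 FPKM in steady wild type, 129 in Tg, 157 in transplant wild type and 124 in the KO-labelled library. Here the transplant wild type was the high library and the steady wild type the low one, the reverse of the order for Il7r in these 2 libraries. Tg was above wild type by a ratio of 1.23 (1.13 to 1.33), and rescaling to the same sum moved that log2 difference from 0.29 to 0.17. The KO-labelled library stood at 0.795 (0.742 to 0.851) of its wild type, and transplant wild type was above steady wild type by 1.49 (1.38 to 1.61). In the GENCODE M21 annotation 42.0% of the 50-base windows of the Il2rg transcript also occur in Gm20489, a gene on the same strand that overlaps it and is not among the symbols, so how reads there were assigned is not known.

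Crlf2 (ENSMUSG00000033467.12; chromosome 5, 109554709 to 109558993, minus strand; 8 exons) encodes the TSLP-specific chain. It was at 21.4 FPKM in steady wild type, 24.2 in Tg, 25.8 in transplant wild type and 24.2 in the KO-labelled library. With 175 to 235 estimated reads per library, all 3 ratios had intervals that include 1: 1.13 (0.915 to 1.39) for Tg, 0.940 (0.780 to 1.14) for the KO-labelled library and 1.20 (0.983 to 1.48) for transplant wild type. A difference of that size was not detectable at this depth. No 50-base window of its transcript occurs in another gene.

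Jak1 (ENSMUSG00000028530.14; chromosome 4, 101152367 to 101265282, minus strand; 25 exons) encodes the kinase carried by the alpha chain and by many other cytokine receptors. It was at 90.2 and 83.2 FPKM in steady wild type and Tg and at 89.96 and 77.5 in transplant wild type and the KO-labelled library. Tg and the KO-labelled library lay below both wild types, by little: the ratios were 0.923 (0.876 to 0.971) for Tg and 0.861 (0.820 to 0.905) for the KO-labelled library. The 2 wild types did not differ beyond counting error, at a ratio of 0.998 (0.949 to 1.05), although rescaling all libraries to the same sum put transplant wild type 0.11 lower on the log2 scale.

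Jak3 (ENSMUSG00000031805.17; chromosome 8, 71676296 to 71690575, plus strand; 25 exons) encodes the kinase carried by the common gamma chain and is largely restricted to blood cells. It was at 11.0 FPKM in steady wild type, 18.0 in Tg, 20.2 in transplant wild type and 13.5 in the KO-labelled library, from 307, 497, 597 and 446 estimated reads. Steady wild type was the low library and transplant wild type the high one, with Tg next to the latter. The ratios were 1.63 (1.41 to 1.89) for Tg, 0.667 (0.589 to 0.755) for the KO-labelled library and 1.84 (1.598 to 2.11) for transplant over steady wild type. Tg and the KO-labelled library thus lay on opposite sides of their wild types, each in 1 library. Of the genes tested, 3.03% were at least as much higher in Tg and 4.91% at least as much lower in the KO-labelled library.

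The last part of Jak3 overlaps Insl3, a relaxin-family hormone gene on the same strand, and 404 of the 623 exonic bases of Insl3 lie in Jak3 exons. Insl3 was at 2.80 FPKM in steady wild type and 3.36 in transplant wild type, and was listed at 0 in Tg and in the KO-labelled library. Its estimated reads were few, 8.56 and 10.9 where it was listed above 0. With the reads of both genes added together, the ratios of reads per depth were 1.58 (1.37 to 1.83) for Tg, 0.655 (0.578 to 0.741) for the KO-labelled library and 1.82 (1.58 to 2.09) for transplant wild type, close to those of Jak3 alone.

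**Figure D3:**
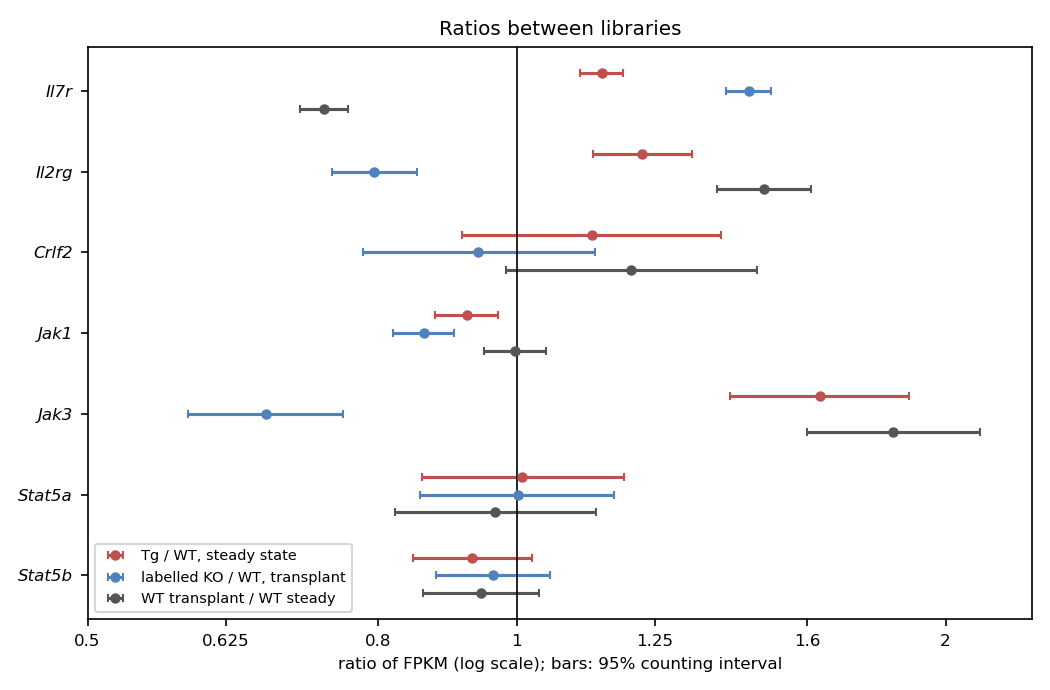
Ratio of FPKM for each gene in the 3 comparisons on a log axis, with 95% counting intervals and a line at 1. Jak3 and Il2rg lie to the right of 1 for Tg and for transplant wild type and to the left for the KO-labelled library, Il7r lies to the right in both genotype comparisons, and all intervals of Crlf2, Stat5a and Stat5b include 1.

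Stat5a (ENSMUSG00000004043.14; chromosome 11, 100859351 to 100885169, plus strand; 18 exons) and Stat5b (ENSMUSG00000020919.11; chromosome 11, 100780731 to 100850724, minus strand; 19 exons) are neighbouring genes, transcribed away from each other, for the transcription factors that carry the IL-7 signal. Because they are close copies, the reads of one can fall to the other. Their coding sequences were identical at 90.8% of 2291 aligned bases. The first 120 coding bases of each show how closely spaced the differences are there, with the 24 that differ in capitals, and the third line is the start of the longest run that both share without a difference, 324 bases from coding base 571 of both, of which 120 are printed.
Stat5a: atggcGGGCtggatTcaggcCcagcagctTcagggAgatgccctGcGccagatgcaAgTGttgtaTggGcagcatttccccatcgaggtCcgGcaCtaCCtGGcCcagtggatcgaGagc
Stat5b: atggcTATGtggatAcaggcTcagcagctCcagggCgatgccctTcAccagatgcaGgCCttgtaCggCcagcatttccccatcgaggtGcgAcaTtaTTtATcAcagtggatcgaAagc
Shared run: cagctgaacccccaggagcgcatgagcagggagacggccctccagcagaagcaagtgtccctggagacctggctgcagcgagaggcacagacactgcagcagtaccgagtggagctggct
A read that lies within the shared run cannot be assigned by its letters. Of all 50-base windows, 17.1% of those in the Stat5a transcript occur in Stat5b, and 11.8% of those in Stat5b occur in Stat5a. Stat5a also shares 71 exonic bases with Stat3 on the opposite strand.

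Stat5a stood at 12.1 FPKM in steady wild type, 12.2 in Tg and 11.7 in both transplant libraries. Stat5b stood at 24.4, 22.7, 23.1 and 22.2 FPKM in the same order of libraries. No library was set apart for either gene. The ratios of Stat5a were 1.01 (0.858 to 1.19) for Tg, 1.00 (0.855 to 1.17) for the KO-labelled library and 0.966 (0.822 to 1.14) for transplant wild type. For Stat5b they were 0.931 (0.846 to 1.02), 0.962 (0.878 to 1.06) and 0.945 (0.860 to 1.04). The summed level of both was 36.5, 35.0, 34.8 and 33.9 FPKM. The ratios of their summed reads per depth, which do not depend on how shared reads were divided between them, were 0.951 (0.876 to 1.03), 0.972 (0.898 to 1.05) and 0.95 (0.876 to 1.03). All 3 intervals include 1, and a difference in summed STAT5 mRNA within them was not detectable at this depth. RNA levels do not measure STAT5 phosphorylation.

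Genes were counted as higher or lower from a difference of 0.32 on the log2(FPKM + 1) scale, a ratio of 5 to 4, which is a threshold of size and not a test. By that count 1 of 7 genes (Jak3) was higher in Tg and 0 lower, where 11.2% of all 10843 genes tested were higher and 8.69% lower. In the KO-labelled library 1 (Il7r) was higher and 2 (Jak3, Il2rg) lower, against 9.61% and 12.4% of 10790 genes. In transplant wild type 2 (Jak3, Il2rg) were higher and 1 (Il7r) lower, against 12.2% and 8.81% of 10835. None of the 7 passed 2-fold in any comparison, where 1.22%, 0.667% and 1.67% of genes were higher and 0.682%, 1.18% and 0.628% lower in the same order. The median differences of the 7 genes were 0.17, -0.09 and -0.0035, beside -0.02, -0.03 and -0.02 for all genes, and rescaling to the same sum turned the second to 0.01. The call for Il2rg in the KO-labelled library, at -0.33, was lost under each of the 3 rescalings of the libraries. Rescaling to the same sum turned the split of genes at 2-fold in that comparison from 72 higher and 127 lower to 117 higher and 105 lower.

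The order of the levels within a library was Il7r, Il2rg, Jak1 in all 4 libraries, with the other 4 genes at 11.0 to 25.8 FPKM. Among the lower genes, Crlf2 and Stat5b did not differ beyond counting error in any library. Neither did Stat5a and Jak3 in steady wild type (ratio 1.10, 0.935 to 1.29) or in the KO-labelled library, where Jak3 was above Stat5a by 1.15 (0.999 to 1.33). In Tg and in transplant wild type Jak3 was clearly above Stat5a, by 1.47 (1.27 to 1.70) and 1.73 (1.503 to 1.99).

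Ratios of 2 genes within 1 library do not depend on how libraries were scaled. The alpha chain to gamma chain ratio, Il7r over Il2rg, was 2.29 (2.15 to 2.44) in steady wild type, 2.14 (2.02 to 2.27) in Tg, 1.13 (1.06 to 1.19) in transplant wild type and 2.06 (1.95 to 2.18) in the KO-labelled library. The transplant wild type stood apart, with a ratio 2.04-fold below that of steady wild type, and the KO-labelled library was 1.83-fold (1.69 to 1.98) above it. Il7r over Crlf2 was 11.2, 11.4, 6.83 and 10.6 in the same order, again with the transplant wild type low. The kinase ratio, Jak1 over Jak3, gave another order: it was 8.20 (7.28 to 9.24) in steady wild type, 4.63 (4.21 to 5.11) in Tg, 4.45 (4.08 to 4.86) in transplant wild type and 5.75 (5.199 to 6.36) in the KO-labelled library. Stat5b over Stat5a lay between 1.86 and 2.02 in all 4 libraries, with overlapping intervals.

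**Figure D4:**
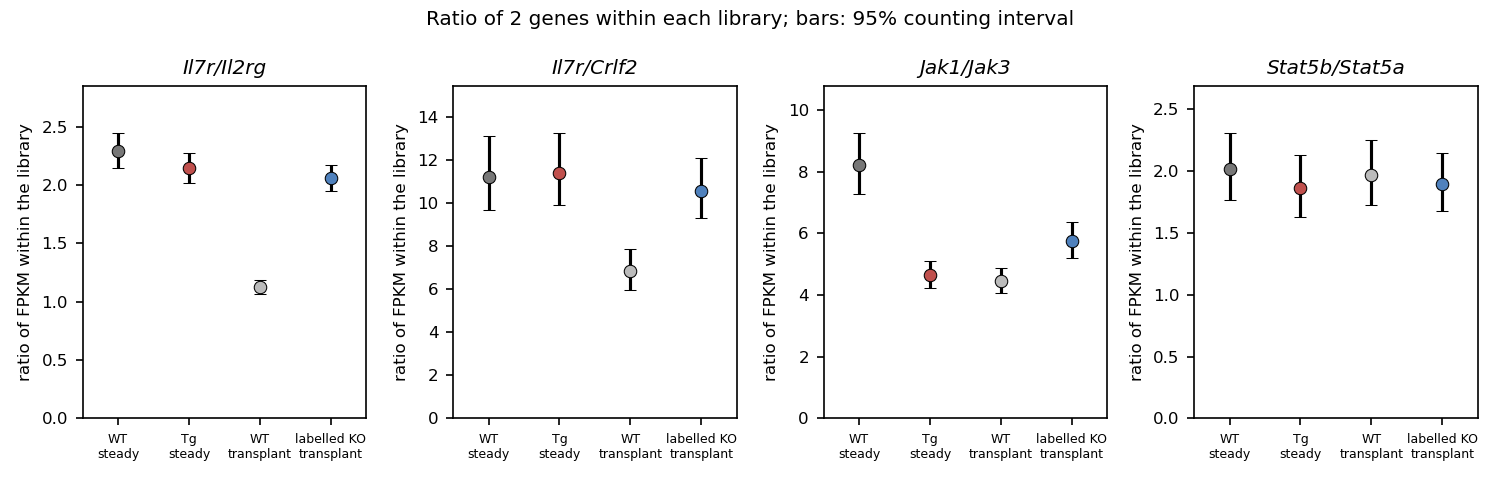
Ratio of the FPKM of 2 genes within each library, with 95% counting intervals; each axis starts at 0. Il7r/Il2rg and Il7r/Crlf2 are lowest in transplant wild type (1.13 and 6.83), Jak1/Jak3 is highest in steady wild type (8.20), and Stat5b/Stat5a is level.

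Of the cytokines that act through these receptors, Il7, Tslp, Il2 and Il9 were listed at 0 in all 4 libraries. Il15, the cytokine of memory T and NK cells, was at 5.37, 4.38, 8.43 and 5.28 FPKM in steady wild type, Tg, transplant wild type and the KO-labelled library. Of 6 other receptor chains that pair with the gamma chain, 1 was higher by the same count in Tg and none lower. Of all genes, 11.2% were higher and 8.69% lower. In the KO-labelled library 4 were lower and none higher, against 12.4% and 9.61% of all genes. In transplant wild type 2 were higher and 1 lower than in steady wild type, against 12.2% and 8.81%. Il9r, the IL-9 receptor chain gene, was the one in Tg, at 2.65 FPKM in steady wild type and 8.89 in Tg, a ratio of 3.35 (2.13 to 5.38). Among the 4 in the KO-labelled library, Il21r was at 64.8 FPKM in its wild type and 41.5 (0.640, 0.584 to 0.700), and Il4ra at 42.1 and 31.6 (0.752, 0.700 to 0.808). Il2ra, which encodes the alpha chain of the IL-2 receptor, was abundant at 60.3 to 83.2 FPKM.

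Of the other JAK and STAT genes, none passed the threshold in either direction in the KO-labelled library. Of all genes, 9.61% were higher and 12.4% lower there. Stat4, the gene of the STAT that acts behind the IL-12 receptor, was at 4.87 FPKM in steady wild type and 7.84 in Tg (1.61, 1.24 to 2.09), and at 4.97 and 4.40 in the transplant libraries. Tg was thus the high library for Stat4. Stat3, the neighbour of Stat5a, ranged from 36.3 to 44.4 FPKM.

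Genes that STAT5 or IL-7 signalling is known to induce were mixed. Of 14 tested, 4 were higher and 2 lower in Tg by that count, against 11.2% and 8.69% of all genes. Their median difference in Tg was 0.12 beside -0.02 for all genes. Rescaling to the same sum moved that median to -0.00053, so its sign depends on the scaling. In the KO-labelled library 1 was higher and 7 lower, against 9.61% and 12.4%, at a median of -0.32 beside -0.03. Transplant wild type had 8 higher and 2 lower than steady wild type, against 12.2% and 8.81%, at a median of 0.36 beside -0.02. The last 2 comparisons share the transplant wild type, and the first and last share the steady wild type.

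Cish encodes a feedback inhibitor and is a classical STAT5 target. A stretch of 30 bases at its RefSeq start (chr9:107296654-107296683, plus strand, GRCm38.p6), which lies in the first exon of a longer GENCODE transcript, is shown because it holds the GAS letters in tandem, in capitals.
Cish: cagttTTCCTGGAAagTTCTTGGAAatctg
Cish was low, at 0.908 FPKM in steady wild type, 1.97 in Tg, 1.254 in transplant wild type and 1.24 in the KO-labelled library. The ratio for Tg was 2.17 (1.18 to 3.96), and that for the KO-labelled library was 0.987 (0.543 to 1.71). Promoters were listed for 10 of the 15 genes of the induced list. Of these 14 promoters, only those of Cish and Socs3 held the letters. That is 14.3%, beside 8.30% of all promoters listed.

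Socs2, another feedback inhibitor, was at 4.90 FPKM in steady wild type and 8.11 in Tg (1.65, 1.23 to 2.26), and at 10.02 and 9.59 in transplant wild type and the KO-labelled library. Socs3 was at 1.247 and 2.35 FPKM at steady state (1.88, 1.10 to 3.42) and at 2.66 and 1.42 after transplantation (0.532, 0.328 to 0.873). Ccnd2, the cyclin D2 gene, was at 4.95 and 9.29 FPKM in steady wild type and Tg (1.88, 1.59 to 2.22), against 25.5 and 21.4 after transplantation. The steady wild type was therefore the low library for Socs2 and Ccnd2. For Socs3 it was the lowest, with the KO-labelled library close to it. Those lower in Tg were Pim1, a survival kinase gene (185 and 132 FPKM), and Bcl2l1, which encodes BCL-XL (101 and 68.9 FPKM). Myc was at 38.0 FPKM in transplant wild type and 17.2 in the KO-labelled library, 2.21-fold lower (1.92 to 2.53), with 10.8 and 12.9 at steady state. Bcl2 was at 8.64 and 4.64 FPKM after transplantation, 1.86-fold lower (1.602 to 2.17), with 4.50 and 4.81 at steady state. For Myc and Bcl2 the transplant wild type was the high library of the 4. Ccnd3, the cyclin D3 gene of dividing pre-B cells, was the one that was higher in the KO-labelled library, at 166 and 225 FPKM.

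Genes that IL-7 or STAT5 signalling is known to hold down in pre-B cells, 9 of them, were all below steady wild type in Tg. By the threshold of 0.32, 5 of them were lower and none higher, against 8.69% and 11.2% of all genes. Their median difference was -0.47 beside -0.02 for all genes. Irf4, a transcription factor gene of the exit from the IL-7 dependent stage, was at 259 and 173 FPKM (0.668, 0.646 to 0.690). Foxo1, which encodes an activator of Rag1 and Rag2, was at 111 and 78.2 (0.702, 0.677 to 0.729), and Bcl6 at 15.7 and 10.8 (0.687, 0.585 to 0.807). In the KO-labelled library 4 were lower and none higher, against 12.4% and 9.61%, with a median of -0.24 beside -0.03. In transplant wild type 1 was higher and 4 were lower than in steady wild type, against 12.2% and 8.81%. The median was -0.21 beside -0.02 for all genes. The Tg and transplant comparisons share the steady wild type. In transplant wild type 6 of the 9 genes were below it too. Of all genes tested, 46.7% were above steady wild type in Tg and 45.9% in transplant wild type. Irf4 was above its wild type in the KO-labelled library, at 181 FPKM in transplant wild type and 219.8 in the KO-labelled library (1.21, 1.17 to 1.252). Rag1 was below its wild type in both, at 638 and 429 FPKM for steady wild type and Tg and at 453 and 286 for transplant wild type and the KO-labelled library.

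**Figure D5:**
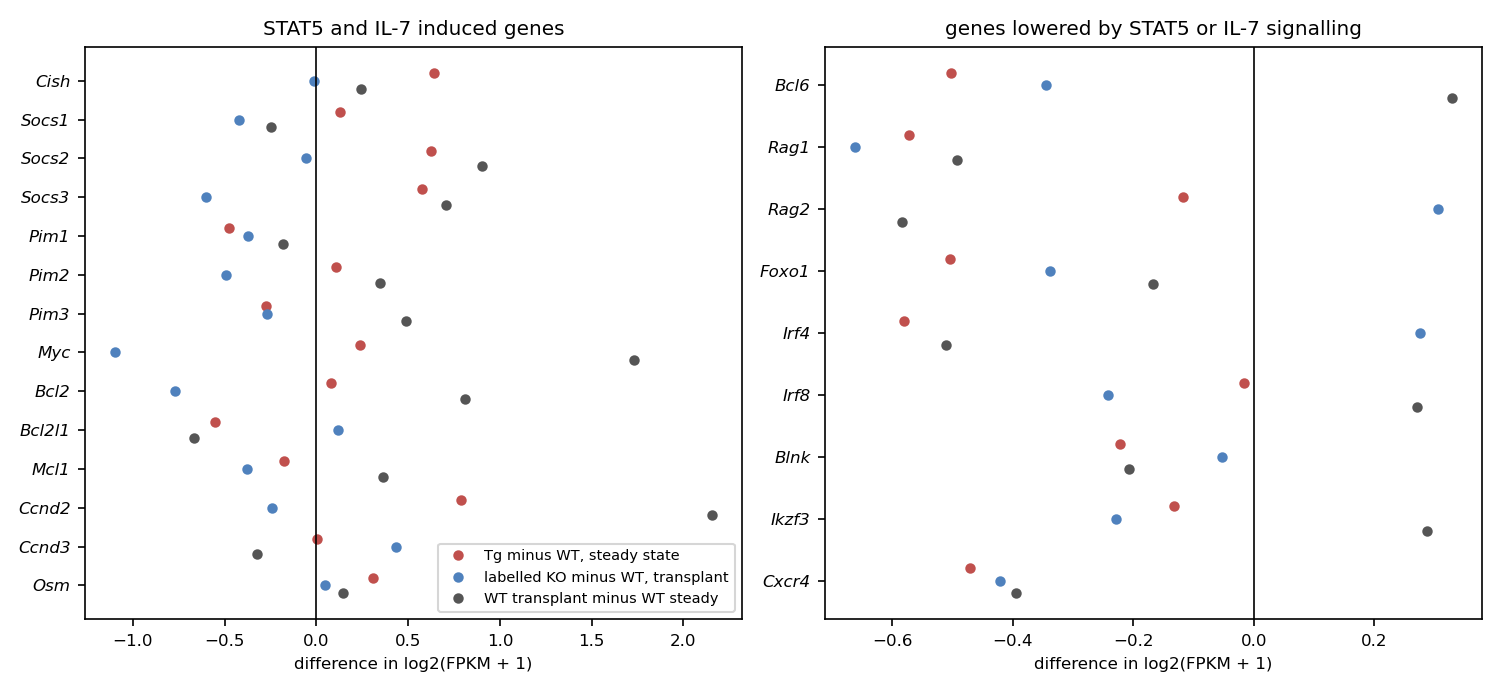
Difference in log2(FPKM + 1) for each gene of the induced list (left) and of the lowered list (right) in the 3 comparisons, 1 point per gene and comparison. Points of the induced list lie on both sides of 0 in each comparison, from -1.10 for Myc in the KO-labelled library to 2.16 for Ccnd2 in transplant wild type, and all red points of the lowered list, for Tg, lie below 0.

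Of 13 genes listed as inhibitors of the cascade, phosphatases and ubiquitin ligases among them, none passed in Tg. Of all genes, 11.2% were higher and 8.69% lower there. In the KO-labelled library none was higher and 1 lower, against 9.61% and 12.4% of all genes. The lower one was Ptprc, the gene of the phosphatase CD45, at 182 and 140 FPKM. In transplant wild type 2 were higher, Ptpn6 and Ptprc, and none lower, against 12.2% and 8.81% of all genes. Ptpn6, the gene of the phosphatase SHP-1, was at 179 and 177 FPKM at steady state and at 306 and 251 after transplantation. Of 13 transcription factor genes reported to act on Il7r, 1 was higher and 4 lower in Tg, against 11.2% and 8.69% of all genes. In the KO-labelled library 1 was higher and 1 lower, against 9.61% and 12.4%, and in transplant wild type none was higher and 2 lower, against 12.2% and 8.81%. Ebf1, a B lineage factor, was at 194 and 140 FPKM in steady wild type and Tg (0.722, 0.690 to 0.755) and at 154 and 169 after transplantation. Myb was at 675 and 544 FPKM at steady state and 452 and 538 after transplantation, lowest where Il7r was lowest. In Tg, where Il7r was highest, Myb was below steady wild type. The part of these factors in the Il7r values was not tested. Of 12 genes of the PI3K and AKT arm, none was higher and 1 (Irs1) lower in Tg, against 11.2% and 8.69% of all genes. In the KO-labelled library 1 was higher, Mtor at 32.4 and 43.5 FPKM, and none lower, against 9.61% and 12.4% of all genes. In transplant wild type none was higher and 4 (Irs1, Gab2, Akt1, Pik3r1) were lower, against 12.2% and 8.81%.

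Levels of other cell types and of dividing cells moved beside these genes, and in bulk libraries fewer cells of a type and less RNA per cell cannot be told apart. Jak3 and Il7r are also T and NK cell genes. The 12 T cell markers summed to 22.9, 19.02, 25.4 and 23.5 FPKM in steady wild type, Tg, transplant wild type and the KO-labelled library, of which Lck made up 14.3, 12.5, 17.4 and 15.6, and Cd3e was at 0.444 to 0.562. The 13 NK and innate lymphoid markers summed to 5.33, 5.39, 9.17 and 4.08 FPKM, with Ncr1 at 0 in all but steady wild type. Neutrophil and monocyte markers, 13 in the files and none at 0, summed to 793, 1879, 1748 and 670.1 FPKM. They were high in the 2 libraries in which Jak3 was high, and their part in the Jak3 values was not tested. Mature B cell markers, 7 in the files and none at 0, summed to 517, 576, 958 and 632 FPKM, highest in transplant wild type, where Il7r was lowest and Il2rg highest. All 7 were lower in the KO-labelled library than in its wild type by the threshold above, against 12.4% of all genes. The 13 mitosis genes, none at 0, summed to 568, 739, 456 and 905 FPKM, lowest in transplant wild type. All 13 were higher in the KO-labelled library than in transplant wild type by the same threshold, against 9.61% of all genes. The part of maturing and of dividing cells in the values of Il7r and Il2rg was not tested. Plasma cell markers, 5 in the files and none at 0, summed to 420.2, 301, 96.9 and 90.9 FPKM, and 10 erythroid and megakaryocyte markers to 45.0, 9.44, 7.96 and 9.78. The 11 immediate early genes, which stress and handling of cells also induce, summed to 1020.3, 677, 1286 and 504.5 FPKM, with Atf3 at 0 in the KO-labelled library. They were high in transplant wild type, the high library of Jak3, Il2rg and Myc, and their part in those values was not tested.

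The genes whose pattern over the 4 libraries was most like that of Il7r, by the largest deviation of log2(FPKM + 1) centred on the mean of the 4 libraries, were Tns3 (0.03), Pppde2 (0.04), Ptgr1 (0.05) and Smad7 (0.06). Of 8218 genes compared, 10 lay within 0.1 of Il7r. Tns3 was at 5.29, 6.50, 3.70 and 5.88 FPKM and Smad7, an inhibitor of TGF-beta signalling, at 11.7, 13.2, 8.77 and 13.2. For Jak3 they were Cd9 (0.06), Nr4a1 (0.07), Ms4a6b (0.08) and Cd86 (0.08), with 8 genes within 0.1. Cd86, a costimulatory ligand gene, was at 3.28, 6.49, 6.97 and 4.59 FPKM and Nr4a1, an immediate early gene, at 12.3, 18.6, 21.0 and 14.1. Likeness over 4 libraries is a description of these libraries.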

How the data were processed

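Per the labels, RNA came from a miRNeasy preparation and was made into TruSeq stranded mRNA libraries. The submitters' processing notes list mm10 and the tools Cufflinks 2.2.1, TopHat2 2.0.13, SAMtools 0.1.19 and Bowtie2 2.2.3. Not given in the sources used here: their roles, the annotation, the use of strand and scaling between libraries. The deposited values are taken as FPKM, since they are not whole numbers and Cufflinks is listed. No file header names a unit.

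Depth was estimated in genes with 1 coding transcript in GENCODE M21 (GRCm38, the assembly of mm10). A length of the transcript minus 205 nt and the depths given put 62.6% to 64.0% of 1643 to 1724 low values within 0.1 of a whole read. Reads of genes with several transcripts are approximate. Intervals of ratios are 95% exact Clopper-Pearson intervals and those of levels exact Poisson ones. Those for changes of within-library ratios are normal on the log scale. Differences are log2(FPKM + 1), which understates low genes, among genes that reached 1 FPKM in 1 of the libraries compared. No p-value is given. Python 3.11.15, SciPy 1.17.1 and Biopython 1.88 were used, and the procedure was tested on simulated reads.

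The named genes are the 7 members, up to 4 genes with the largest difference per list and comparison, genes overlapping a member and the 4 most like Il7r and Jak3. Other list members named as examples were chosen after their values were seen. The members and all 18 lists were chosen with earlier results of these data known. Spi1, Jchain, Ly6g and Ighd were on the lists and are not analysed here, and some other list members are not reported here. Promoters are from RefSeq (GRCm38.p6), which listed all 7 members.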

Additional observations from a re-analysis of the deposited data

How the results depend on the processing

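No paired analysis was possible because each group has 1 library and the labels carry no replicate numbers, and for the same reason no library could be left out. The alternatives were a pseudocount of 0.1, no filter, a filter of 5 FPKM and 3 rescalings of the libraries. Of 126 values of single genes among the 7 under these alternatives, 118 moved by no more than their counting error and 8 by more, all 8 on rescaling to the same sum (Il7r and Jak1 in all 3 comparisons, Il2rg in Tg and the KO-labelled library), and no difference of 0.32 or more changed sign. That rescaling moved the median of all genes to -0.13, 0.06 and -0.12 for Tg, the KO-labelled library and transplant wild type, and the median of the 7 genes for transplant wild type to -0.11. It turned the small differences of Stat5a in Tg and of Crlf2 and Stat5b in the KO-labelled library to the other side of 0, and rescaling by the median of gene ratios did so for Jak1 in transplant wild type (0.01). At a pseudocount of 0.1, genes at 2-fold numbered 275 higher and 159 lower for Tg, 154 and 267 for the KO-labelled library and 346 and 158 for transplant wild type. With the filter of 5 FPKM they numbered 69 and 44 for Tg, and the lower ones 80 for the KO-labelled library and 41 for transplant wild type. Rescaled to the same sum, 117 were higher in the KO-labelled library. Of 259 list medians 243 moved by less than the counting error of their middle gene and none of 0.32 or more changed sign. The counting intervals of low genes such as Il9r, Cish and Socs3 are wide.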
